A study of Drosophila melanogaster with 6 samples.

Results

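Zip42C.2 is a fruit fly gene for a zinc transporter of the ZIP family, and it was described here on 6 one-colour Agilent arrays of whole Drosophila melanogaster larvae. Its probes were found by matching the identifier of each gene probe, without its version, to the accession, symbol and synonyms of Zip42C.2 in the RefSeq gene table. This gave 1 probe (identifier NM_136387) in 1 spot per array, of 32162 probes and 43602 gene spots. The gene was selected on its measured log2 difference between irradiated and control larvae, so that difference is given as a description, with no test.

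All samples were larvae of the wild-type strain Oregon-R. Controls (3 arrays) received no radiation, labelled as 0 Gy. Irradiated larvae (3 arrays) were exposed to chronic gamma rays from the first instar, to 0.1 Gy at a rate of 16.7 mGy/h. Larvae of both groups stood 20 to a vial at 25 °C, and the labels give their age as 5 days. For both groups the labels also give a culture of 24 h beforehand. By its title, the series concerns gene expression and larval movement after low-dose radiation. The labels do not say how many larvae went into an RNA sample or whether replicates came from separate vials, so the spread between arrays may be partly technical.

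ZIP proteins carry zinc into the cytosol, from outside the cell or from compartments within it, and ZnT proteins carry it the other way. In flies, Zip42C.2 and its close relative Zip42C.1 are known as importers of dietary zinc in the gut. Zinc is a cofactor of many enzymes and holds together the fold of zinc-finger transcription factors. In RNA of whole larvae, fewer cells of a type and less RNA per cell cannot be told apart.

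Zip42C.2 gave a signal on every array. The processed signal of its spot was 208 in control 1, 273 in control 2 and 254 in control 3. It was 637 in irradiated 1, 649 in irradiated 2 and 526 in irradiated 3. Each irradiated array therefore lay above each control array before any scaling between arrays. Without scaling, the median difference of all features was itself 0.13 in log2 units. The share of features without overlap was not counted on these unscaled signals.

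The spot was well above background on 6 of 6 arrays. It was not saturated on any, and neither the spot nor its background carried an outlier flag. The median pixel signal stood 10.6, 13.6 and 13.0 times above the local background in controls 1, 2 and 3. The same ratio was 32.8, 24.1 and 19.2 in irradiated 1, 2 and 3. The local background itself was 26, 26 and 25 in the controls and 22, 31 and 31.5 in irradiated 1, 2 and 3. Background was lowest on irradiated 1 and highest on irradiated 2 and irradiated 3. The part of the local background in the difference of the signal was not tested.

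Scaled to the 75th percentile of the signals of its array, the level of Zip42C.2 was -2.80, -2.24 and -2.51 in controls 1, 2 and 3, in log2 units. It was -1.19, -1.24 and -1.61 in irradiated 1, 2 and 3. The groups did not overlap, and the gap from the highest control to the lowest irradiated array was 0.63, or 1.55-fold. Groups without overlap were found for 17.4% of all 18780 features tested, and for 8.23% with the irradiated arrays higher. Because the choice of the gene used this contrast, nothing is read from its place in that share.

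**Figure D1:**
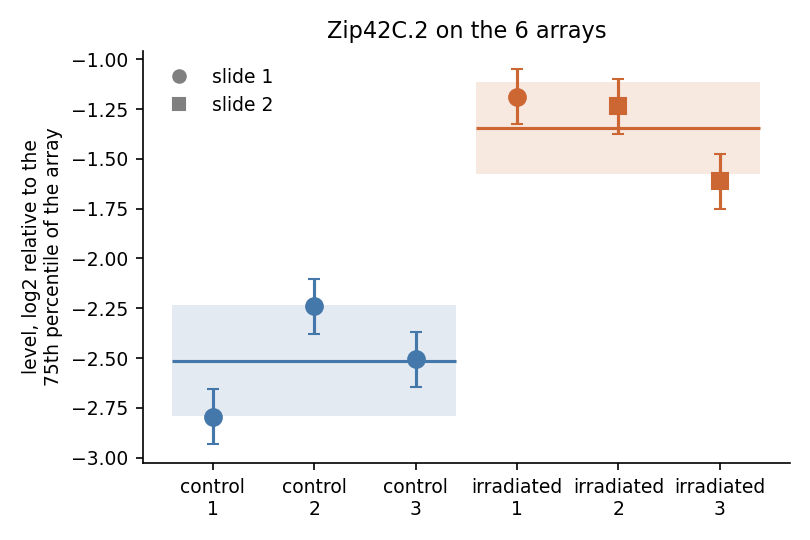
Level of Zip42C.2 on each array, in log2 units relative to the 75th percentile of that array (y axis), for 3 control and 3 irradiated arrays (x axis). Whiskers are the error that the scanner software gives for the spot, lines are group means, bands are 1 SD, and the marker shape gives the slide. The irradiated arrays sit between -1.61 and -1.19 and the controls between -2.80 and -2.24.

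The mean level was -2.51 ± 0.28 (SD, n = 3) in controls and -1.35 ± 0.23 (SD, n = 3) in irradiated larvae. The difference was 1.17 ± 0.18 (SE) in log2 units, which is 2.25-fold. On the linear scale the signal was 17.7% ± 3.39 (SD, n = 3) of the upper quartile of the array in controls and 39.7% ± 6.07 (SD, n = 3) in irradiated larvae. Among all features, 69 had a difference at least this far upward, Zip42C.2 included, and 0.564% were at least 2-fold higher. Among the 338 features with a gene symbol, it came after lncRNA:alphagamma-element:CR32865 alone in size of the difference. In limma, 0 of the 18780 features (0%) passed an adjusted p of 0.05, and 1864 had an unadjusted p below that value (9.93%).

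The spread between replicate arrays includes differences between samples as well as the error of the spot. The scanner software gives the processed signal of Zip42C.2 an error of 0.14 in log2 units on each array. The SD between arrays of a group was 0.26 when pooled over both groups, although irradiated 1 and irradiated 2 lay within the error of the spot of each other. For 79.5% of all features this pooled SD was smaller, with a median of 0.11. Zip42C.2 therefore varied more within groups than most features did, and the range within a group was 0.56 in controls and 0.42 in irradiated larvae.

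The 9 pairs of an irradiated and a control array gave folds from 1.55 to 3.05. The irradiated array was the higher in each, as it must be where the groups do not overlap. The smallest was irradiated 3 over control 2 and the largest irradiated 1 over control 1. Both extremes rest on the controls as much as on the irradiated arrays, since control 1 was the lowest array and control 2 the highest of its group. Without control 1 the difference was 1.03, and without control 2 it was 1.31.

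The arrays came from 2 slides. Slide 1 held all controls and irradiated 1, and slide 2 held irradiated 2 and irradiated 3. Within slide 1, the level in irradiated 1 was 1.33 above the control mean (2.51-fold), which rests on that single irradiated array. Irradiated 1 also stood 0.24 above the mean of the irradiated arrays on slide 2. It was the highest array of the series, above irradiated 2 by less than the error of the spot. Slide and group cannot be told apart for the other irradiated arrays.

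There were also 2 pairs of arrays at matching positions. Irradiated 2 and control 1 lay at the same position of their slides and differed by 1.56. Irradiated 3 and control 2 likewise shared a position and differed by 0.63. Both pairs cross the slides, and with position as a block the difference was 1.09 ± 0.29 (SE).

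The authors' deposited value table gives, for each probe, a linear ratio to its own median over the 6 arrays. For Zip42C.2 that ratio was 0.485, 0.767 and 0.711 in controls 1, 2 and 3. It was 1.56, 1.90 and 1.23 in irradiated 1, 2 and 3. Here irradiated 2 was the highest array rather than irradiated 1, and the groups did not overlap. These are the same 6 arrays, and the share of features without overlap was not counted for these ratios. The median of all probes in that table was also highest on irradiated 2, at 1.17, and lowest on control 1, at 0.892. On the log2 scale the difference was 1.26 ± 0.23 (SE), where the median over all features was 0.091.

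The spots around that of Zip42C.2 showed no common shift of its size. The 8 nearest gene spots on the array surface had differences between groups from -0.35 to 0.46, with a median of 0.034, and 5 of the 8 were above 0. Of these, 7 were well above background on all 6 arrays, with a median of 0.043. The spot with the difference of 0.46 lay in the same row and stood at -4.11, -4.35 and -4.32 in the controls and at -3.83, -3.84 and -3.73 in irradiated larvae. The spot at -0.35 was well above background on no array.

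**Figure D2:**
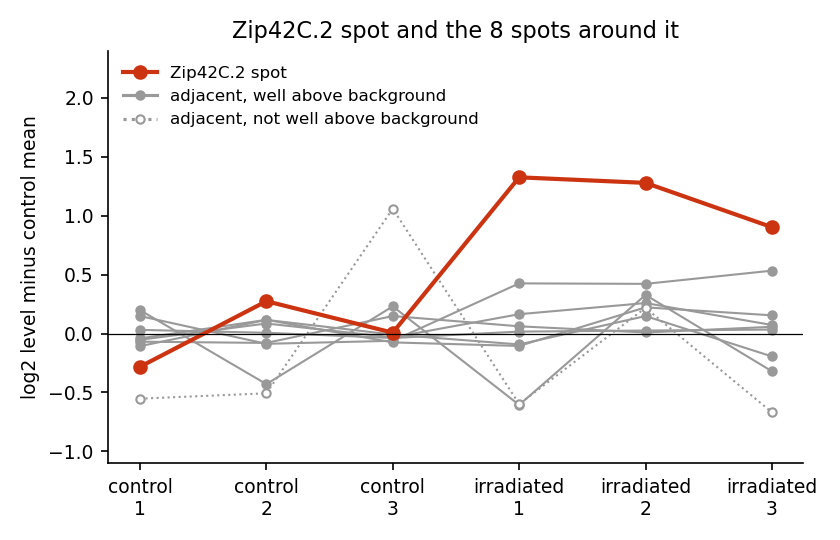
Level of the Zip42C.2 spot and of the 8 nearest gene spots on each array (x axis), as log2 difference from the control mean of the same spot (y axis). Zip42C.2 stands at 1.33, 1.28 and 0.90 on the irradiated arrays. The dotted line is the adjacent spot that was not well above background.

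The wider zinc and metal pathway could hardly be read on these arrays. Of 51 listed genes of metal transport and storage, 50 were in the gene table and 1, Zip42C.2 itself, could be identified among the probes. The list held 10 ZIP importers, 8 ZnT exporters, 7 genes of the metallothioneins and their regulator MTF-1, 7 of copper and 11 of iron handling, and 8 of pigmentation. Most probes of the array (21498) carry FlyBase transcript identifiers, which the gene table seldom holds, so Zip42C.1, the ZnT genes and the metallothioneins may be among features that could not be named.

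Of the 10 genes on each side of Zip42C.2 on chromosome arm 2R, 1 was identified, Rab2, which encodes a small GTPase that acts in vesicle traffic. Its level was -4.66, -4.69 and -4.38 in controls 1, 2 and 3 and -4.91, -4.89 and -4.99 in irradiated 1, 2 and 3. All irradiated arrays lay below all controls, as for 9.15% of features. The difference of -0.35 ± 0.10 (SE) did not pass in limma (adjusted p = 0.393). It was -0.33 within slide 1 and -0.23 when background was instead modelled by normexp, on the median pixel signal. In the gene table, 5 genes lie between Rab2 and Zip42C.2, and Zip42C.1 is the next gene on that side.

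Since Zip42C.2 is known from the gut, the midgut genes that could be identified are given beside it. These were 4 of 15 listed, the digestive proteases alphaTry, epsilonTry and Jon65Aiii and the lysozyme LysE, and all were well above background on every array. Their summed level, as a multiple of the 75th-percentile signal, ran from 392 to 421 in controls and from 434 to 472 in irradiated larvae. That sum was higher on every irradiated array than on every control, as were 8.23% of single features. The brightest probes, Jon65Aiii, LysE and epsilonTry, set most of it. Of these, LysE differed between the groups by 0.42, Jon65Aiii by 0.023 and epsilonTry by 0.00034 in log2 units. Among the irradiated arrays the sum was lowest in irradiated 1, at 434. After scaling, Zip42C.2 was highest there, by less than the error of the spot over irradiated 2. Before scaling, irradiated 2 was the higher of these arrays (649 against 637). The part of the summed level in the difference of Zip42C.2 was not tested.

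The midgut genes did not move alike. The level of LysE was 6.73, 7.21 and 7.12 in controls 1, 2 and 3 and 7.22, 7.51 and 7.57 in irradiated 1, 2 and 3. The trypsin gene alphaTry was at 2.47, 2.24 and 2.28 in the controls and at 2.55, 2.87 and 2.78 in irradiated larvae. Both were higher on slide 2 than in irradiated 1. Zip42C.2 stood at -1.19 in irradiated 1, -1.24 in irradiated 2 and -1.61 in irradiated 3. For it, irradiated 1 and irradiated 2 lay within the error of the spot of each other. Their differences were 0.42 ± 0.16 (SE) for LysE and 0.40 ± 0.11 (SE) for alphaTry, and neither passed in limma (adjusted p = 0.492 and 0.384). Within slide 1 they were 0.20 and 0.22.

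Jon65Aiii, a chymotrypsin-like enzyme, and the trypsin epsilonTry gave differences close to 0. Jon65Aiii ran from 7.51 to 7.55 in controls and from 7.52 to 7.57 in irradiated larvae. The range of epsilonTry was 6.35 to 6.61 in controls and 6.47 to 6.51 in irradiated larvae. The ranges of Jon65Aiii and epsilonTry overlap between the groups. Those of LysE and alphaTry do not, with the irradiated arrays higher, as for 8.23% of all features.

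**Figure D3:**
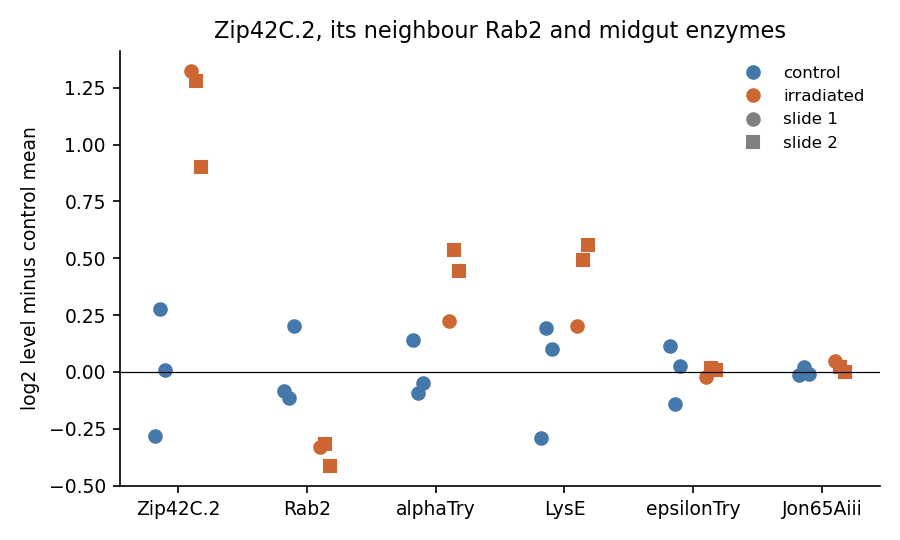
Level on each array as log2 difference from the control mean of the same gene (y axis), for Zip42C.2, Rab2 and the 4 identified midgut genes (x axis). Colour gives the group and shape the slide. LysE and alphaTry are higher on the irradiated arrays of slide 2 than on irradiated 1, and the irradiated arrays of Zip42C.2 run from 0.90 to 1.33.

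Other tissues were represented by few identified genes. The larval cuticle genes Cpr49Ag and Cpr97Eb were at -0.18 ± 0.083 and -0.19 ± 0.13 (difference and SE), arginine kinase (Argk1) of muscle at 0.055 ± 0.24 and tyrosine hydroxylase (ple) of dopamine neurons at -0.13 ± 0.16. None passed in limma (adjusted p from 0.547 to 0.979). No listed marker of Malpighian tubule, fat body, salivary gland or haemocytes could be identified. The male-limited RNAs lncRNA:roX1 and lncRNA:roX2, which serve dosage compensation of the X chromosome, had their lowest levels in irradiated 1 (0.48 and -2.42) and control 3 (0.83 and -2.40). Zip42C.2 was highest in irradiated 1, by less than the error of the spot over irradiated 2, and in the middle of its group in control 3. The differences were -0.20 ± 0.38 (SE) for lncRNA:roX1 and -0.058 ± 0.37 (SE) for lncRNA:roX2. Within slide 1, with its single irradiated array, they were -0.88 and -0.63. The part of the roX levels in the difference of Zip42C.2 was not tested.

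Across all 6 arrays, the named feature with the most similar profile was lncRNA:alphagamma-element:CR32865, a non-coding RNA transcribed from repeats at the Hsp70 heat shock locus (Pearson r = 0.99). Its level was -4.42, -3.79 and -3.86 in controls 1, 2 and 3 and -2.61, -2.63 and -3.08 in irradiated 1, 2 and 3. Both genes put the 6 arrays in the same order, from control 1 at the bottom to irradiated 1 at the top. The alphagamma element differed by 1.25 ± 0.22 (SE) over all arrays, by 1.41 within slide 1 and by 0.78 with normexp.

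The other 4 of the 5 highest correlations were those of CG9312 (0.95), the predicted lipase gene CG6283 (0.92), Ost48 (0.90) and retn (0.87). Ost48 belongs to the enzyme complex of N-glycosylation, and retn encodes a DNA-binding transcription factor. Their sizes were unlike that of Zip42C.2. The difference was 0.77 ± 0.16 (SE) for CG6283, whereas CG9312, Ost48 and retn differed by 0.10, 0.16 and 0.13. These correlations mostly follow the gap between the groups, which the choice of the gene used, and all values come from the same 6 arrays. An r of at least 0.9 was reached by 344 of the other 18779 features (1.83%) and by 4 of the 337 with a symbol.

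With the group means removed, a different set came out on top. The highest correlations of deviations were those of PlexA, a semaphorin receptor (0.99), the cuticle protein gene Acp65Aa (0.98) and snoRNA:Psi28S-291, a guide of ribosomal RNA modification (0.97). They were followed by caps, a cell adhesion gene (0.96), and the alphagamma element (0.95). PlexA was lower in irradiated larvae, at -2.26, -2.30 and -2.44 against -2.22, -2.05 and -2.12 in controls 1, 2 and 3, although within each group it followed the order of Zip42C.2. Acp65Aa was at -0.92, 0.02 and -0.61 in the controls and at 0.03, -0.09 and -0.58 in irradiated larvae, and its groups overlapped. Such a correlation of at least 0.9 was found for 660 features (3.51%). Deviations in groups of 3 leave few independent values, and what set this share was not tested. The alphagamma element was the 1 named feature in both sets of 5.

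**Figure D4:**
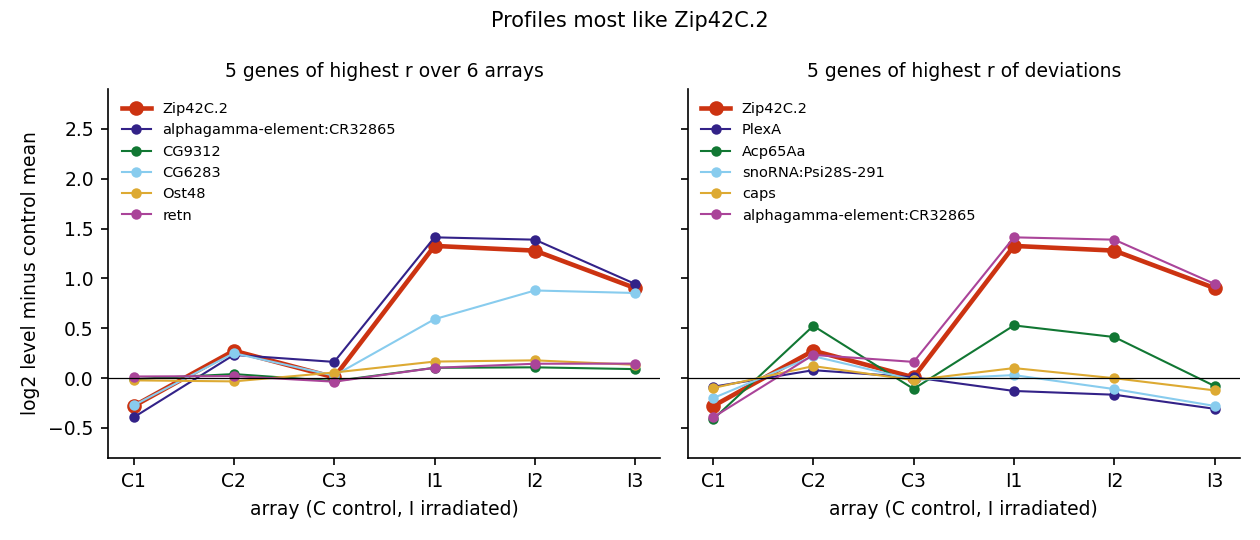
Level on each array (x axis) as log2 difference from the control mean (y axis), for Zip42C.2 and the 5 named genes of highest correlation over the 6 arrays (left) or of highest correlation of deviations from the group means (right). The alphagamma element runs close to Zip42C.2, while CG9312, Ost48 and retn differ between the group means by 0.10, 0.16 and 0.13.

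Over 20 other ways to process the data, the difference of Zip42C.2 ran from 0.96 to 1.33, or from 1.95-fold to 2.51-fold. All of them use the same arrays on which the gene was chosen, so nothing is read from the sign of the difference. It was under 2-fold with normexp alone, which changed the signal column, the background model and the offset (50) together, and which of these lowered the value was not tested.

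**Figure D5:**
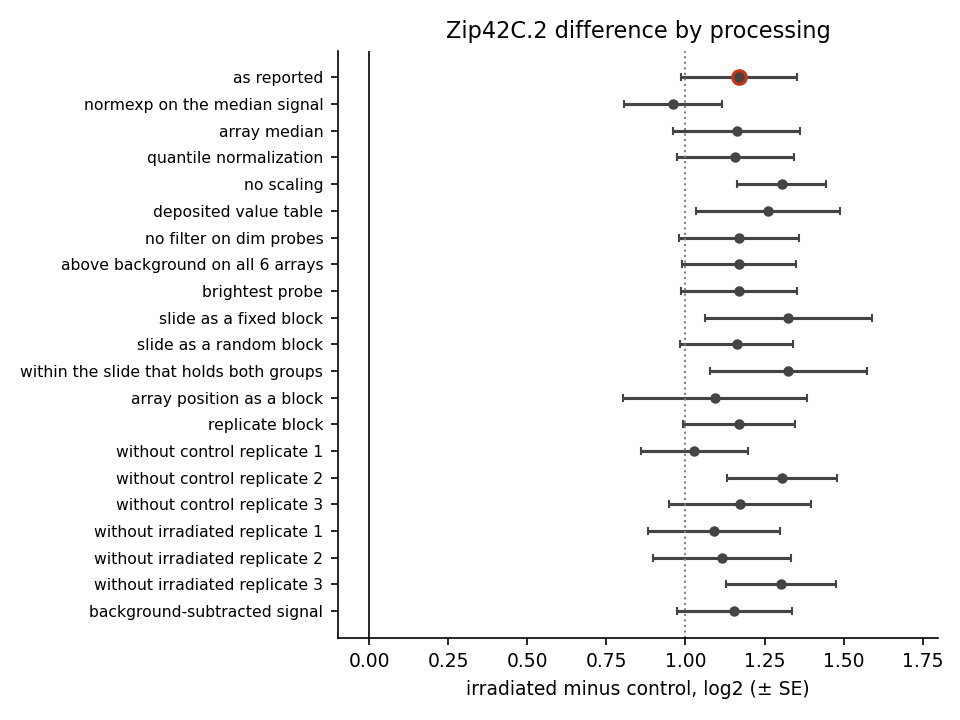
Difference of Zip42C.2, irradiated minus control, in log2 units with its SE (x axis), as reported (red) and under each of 20 alternatives (y axis). The dotted line marks 2-fold, and normexp is the only alternative whose value lies below it.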

How the data were processed

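Spot intensities of 6 one-colour arrays were used as deposited by the authors. Per the file headers, the quantification used Agilent Feature Extraction 11.5.1.1, and the submitters' processing notes name version 9.1. The labels' protocols state Cy3-labelled cRNA of total RNA. Blood cell lysis and globin removal are named there too, and whether larvae underwent them is not known. The authors' deposited ratio table was an alternative, and the scaling of its arrays is not stated.

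Control spots and spots flagged as outliers were left out. From the log2 processed signal, the 75th percentile of each array was subtracted, which stood at signals of 1288 to 1607. Probes with a share of at least 0.5 of their spots well above background on all arrays of a group were kept (23818), and probes of the same name were averaged into 18780 features. Between 75.8% and 81.1% of the gene spots of an array were well above background, and 3 arrays per group limit the precision. Identifiers were matched to RefSeq symbols of the Release 6 assembly for 549 probes. The array was annotated on an older assembly, so no coordinates are given. Differences and SE come from limma 3.58.1 in R 4.3.3, two-sided, with Benjamini-Hochberg adjustment over all features, and the fit was tested on simulated data.

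Named genes were Zip42C.2, identified genes of the metal list, the neighbours and the tissue markers, and the 5 named features of highest correlation of either kind. The gene and the lists were chosen with earlier results of these data known. Alternatives covered background, scaling, filter, slide, position, replicate block and each array left out. The background-subtracted signal was added after seeing the data.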

Additional observations from a re-analysis of the deposited data

How the results depend on the processing

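The difference of Zip42C.2 (1.17) moved by less than 1 SD between arrays (0.26) under all 20 alternatives. The largest move, to 0.96 with normexp, was more than the SE of the difference (0.18). With each array left out, the difference ran from 1.03 to 1.31. The replicate block left it at 1.17 with 0 features called. Deviations of same-numbered arrays correlated at -0.27, -0.20 and -0.60, so the numbers were not taken as pairs. Features called numbered 0, also with each array left out (0 to 0), except for 7 with the deposited value table. Rab2 was called under none. Zip42C.2 was not among the 7 either, and nothing is read from that, because its choice used this contrast. Why the deposited values gave 7 was not tested. Without adjustment, 1864 features had a p under 0.05. That count was 763 for the deposited values, 990 with position as a block, 1088 with median scaling and 1210 with slide as a fixed block. Other settings raised it, to 2244 with normexp and 2228 with no scaling. The median of the 8 adjacent spots ran from 0.020 to 0.085 with each array left out and was 0.17 with no scaling, which moves the median of all features to 0.13. It was 0.13 with position as a block, -0.038 within slide 1 or with slide as a fixed block and -0.0066 with normexp. Ranked by Spearman rho, 3 of the 5 most similar genes over all arrays and 4 of the 5 by deviations were the same. A normexp fit on mean signals was not run, since the scanner files used here have no such column. Only 1 spot measures Zip42C.2, so probes could not be compared.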
